A study of Rattus norvegicus with 65 samples.

Results

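The genes described here encode the SR proteins, the hnRNP proteins and 9 further regulators of alternative splicing. Members were the rows of the count table whose rat symbol begins with Srsf or Hnrnp, together with Rbm20, Rbm24, Rbfox1, Rbfox2, Ptbp1, Mbnl1, Mbnl2, Celf1 and Celf2. The rule itself uses no expression value, but the genes were chosen with earlier results of these data known. They numbered 38 of the 14554 genes in the table, with 11 Srsf genes, 18 Hnrnp genes and the 9 named regulators. Hnrnpab, Hnrnpc, Hnrnph3, Srsf8, Hnrnpcl1 and Hnrnpa1-ps50 carry such symbols in the rat annotation but were not analysed here. RNA was measured in primary neonatal rat cardiomyocytes, heart muscle cells isolated from newborn rats, serum-starved overnight and then exposed for 6 or 24 hours to 1 of 3 drugs. These were 10 mM 5-fluorouracil (5FU), 2.5 mM acetaminophen (Ace) and 1.25 μM doxorubicin (Dox). The control of 5FU was DMSO1 (1% DMSO), and that of both Ace and Dox was DMSO2 (0.25% DMSO). There were 6 libraries each of 5FU, Ace and DMSO1 and 7 each of Dox and DMSO2 at 6 hours, and 6 each of 5FU and DMSO1 and 7 each of Ace, Dox and DMSO2 at 24 hours. The wells were plated from a pool of cells from several litters, so libraries of a group stand for wells of 1 preparation rather than for animals, and the p-values measure only the spread between wells.

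SR proteins bind exonic enhancer sequences through their RNA recognition motifs and use a tail of arginine-serine repeats, phosphorylated by SRPK and CLK kinases, to recruit the spliceosome to nearby splice sites. The hnRNP proteins coat nascent transcripts and often act against them by blocking splice sites or looping exons out, so the balance between both families sets the inclusion of many exons. In heart muscle RBM20 and RBM24, the RBFOX and MBNL proteins, CELF1, CELF2 and PTBP1 shape the isoforms of sarcomere and calcium handling genes. Many SR and hnRNP genes also limit their own transcripts by splicing in exons that send them to nonsense-mediated decay.

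The library totals ran from 14332827 to 25738297 estimated counts, and 37 of the 38 members had at least 10 counts in every library. The exception was Hnrnpr-ps2, annotated as a pseudogene, with at least 10 counts in 47 libraries. Levels are given as counts scaled to a common library total with TMM factors (CPM) and are not corrected for transcript length, so they compare groups for a gene and not genes with each other. The SD of log2(CPM + 1) within groups had a median of 0.10 over the members and 0.14 over all genes. Several members have annotated pseudogenes (51 for Hnrnpa1, 10 for Srsf3, 7 each for Srsf7 and Hnrnpk, and 6 for Ptbp1), and reads shared with such copies could not be told apart, which leaves their counts uncertain. All 11 of the cardiomyocyte markers in the table had counts in every library, and so did the 10 fibroblast markers. Libraries are numbered here by the order of their columns within a group, and these numbers cannot be tied to the replicate numbers of the samples. A pair of libraries stood apart for several members: DMSO1 library 1 at 24 hours and Dox library 7 at 24 hours, the latter also the deepest of its group. Counts of called members are given below without each of them.

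Each drug was first compared with its own DMSO control. Fold changes are log2 values from edgeR's quasi-likelihood fit over all genes, with positive values for higher levels under the drug, and a gene was called at a Benjamini-Hochberg FDR below 0.01. In 5FU at 6 hours 27 of 38 members were called, 3 higher and 24 lower, against 47.9% (23.4% higher, 24.5% lower) of all genes tested. At 24 hours of 5FU 25 were called, 7 higher and 18 lower, against 55.8% (28% higher, 27.8% lower). Ace gave 17 calls at 6 hours (6 higher, 11 lower, background 31.7%, 16.5% higher and 15.2% lower) and 10 at 24 hours (4 higher, 6 lower, background 37.2%, 18.2% higher and 19.1% lower). Dox gave 30 calls at 6 hours (7 higher, 23 lower, background 64.2%, 31.5% higher and 32.7% lower) and 33 at 24 hours (9 higher, 24 lower, background 81.4%, 40.4% higher and 41% lower). The members' shares were 71.1%, 65.8%, 44.7%, 26.3%, 78.9% and 86.8% in the same order, above that of all genes in 5 comparisons and below it in Ace at 24 hours, and in Dox at 24 hours the share was near the background. Members differed from all genes in counts and spread. At least 10 counts in every library were held by 37 members, against 11908 of the 14554 genes. The median SD within groups was 0.10 and 0.14. Their part in these shares was not tested. Counts that also require a log2 fold change of at least 1 are given in the last section. With that requirement the members' share was clearly above that of all genes only in 5FU at 6 hours.

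The members leaned to lower levels. Their median log2 fold change was -0.29 in 5FU at 6 hours, -0.21 in 5FU at 24 hours, -0.29 in Dox at 6 hours, -0.40 in Dox at 24 hours, and -0.11 and -0.066 in Ace. The medians of all genes in these 6 comparisons lay between -0.0094 and 0.0030. The split between higher and lower calls depended on the scaling in part of the comparisons. With library size in place of TMM, 5FU at 6 hours had 0 members called higher and 26 lower, and Ace at 24 hours had 6 higher and 5 lower. That scaling moved the median log2 fold change of all genes in Dox at 6 hours to -0.15, and in the other 5 drug comparisons by less than 0.1. Without DMSO1 library 1, 26 members were called in 5FU at 24 hours, and without Dox library 7, 36 were called in Dox at 24 hours. Every member was called in at least 1 of the 6 drug comparisons, as were 96.8% of all genes. Srsf5 was the 1 member called in all 6, as 5.99% of all genes were, 3 times higher and 3 times lower.

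The calls can be set beside the libraries themselves. In Dox at 24 hours 8 members had every drug library above every control library and 21 had every one below. Of all genes 68.2% did so in either direction, 33.6% above and 34.6% below. In Dox at 6 hours the counts were 5 above and 18 below (background 42.6%, 19.7% above and 22.9% below). In 5FU they were 0 and 14 at 6 hours (background 28.2%, 13.8% above and 14.4% below). At 24 hours of 5FU they were 6 and 15 (background 42.9%, 22.3% above and 20.6% below). In Ace they were 5 and 9 at 6 hours (background 24.5%, 12.4% above and 12.1% below). At 24 hours of Ace they were 2 and 6 (background 26.9%, 13.2% above and 13.7% below).

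**Figure D1:**
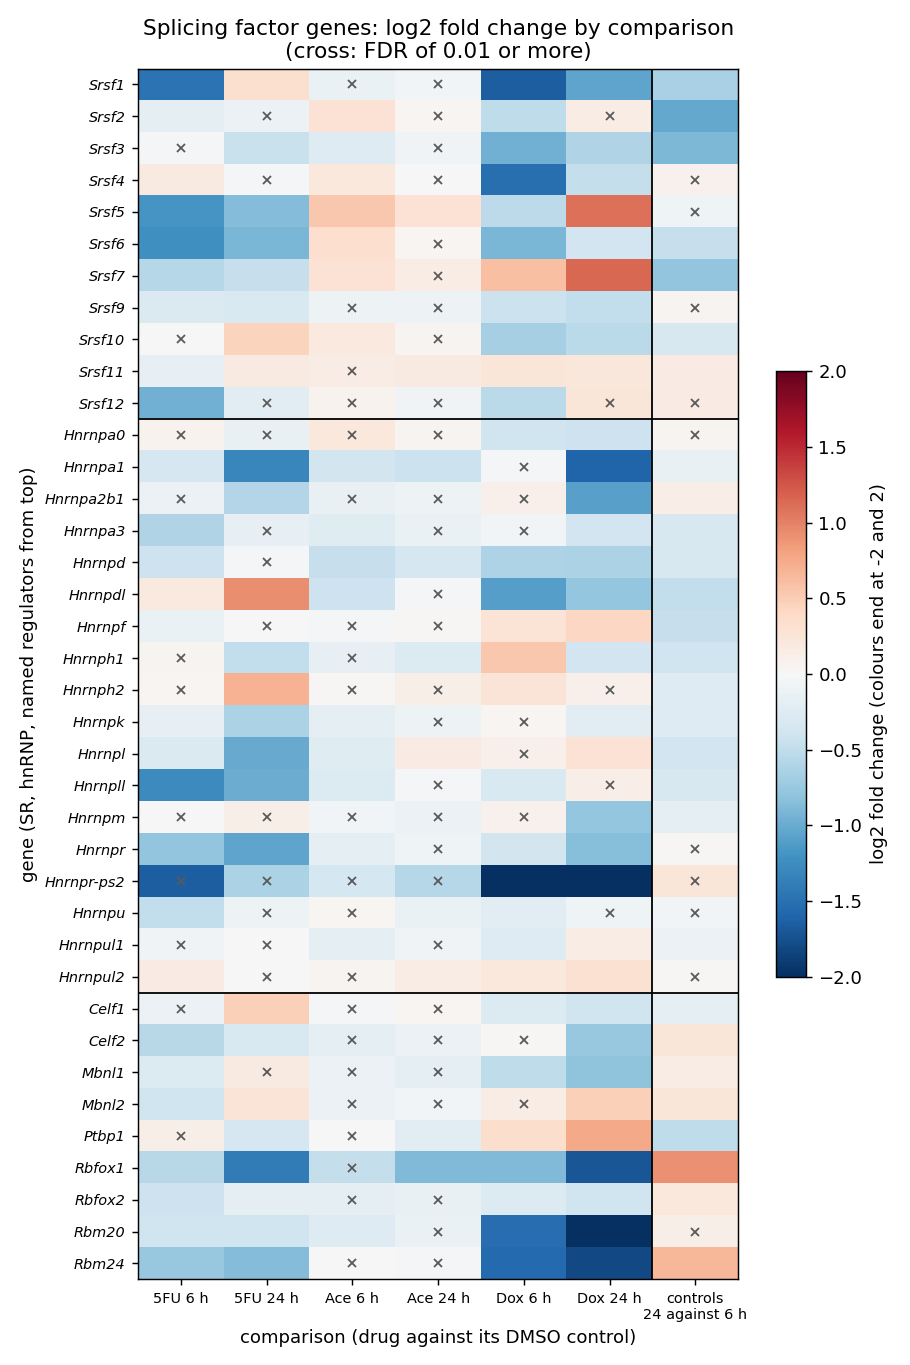
Log2 fold change of the 38 members (rows) in the 6 drug comparisons and between 24 and 6 hours in the controls (columns), blue for lower and red for higher, with a cross where the FDR was 0.01 or more. The Dox columns hold the deepest blue for Rbm20, Rbm24 and Hnrnpr-ps2, the Ace columns are pale, and Srsf5 and Srsf7 turn from blue in 5FU to red in Dox at 24 hours.

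The SR protein genes did not move the same way in the 3 drugs at 6 hours. There 8 of the 11 were called lower and 1 higher in 5FU, 9 were called lower and 2 higher in Dox, and 6 were called higher and 1 lower in Ace. These class directions held under each scaling tried, the counts with library size alone being 0 higher and 8 lower, 1 higher and 9 lower, and 5 higher and 2 lower. Of all genes 24.5% were called lower and 23.4% higher in 5FU at 6 hours. The shares were 32.7% and 31.5% in Dox and 15.2% and 16.5% in Ace. At 24 hours 3 SR genes were called higher and 5 lower in 5FU, and 3 higher and 6 lower in Dox. Ace had 2 higher and 0 lower. The shares of all genes were 28% higher and 27.8% lower in 5FU, 40.4% and 41% in Dox and 18.2% and 19.1% in Ace. The summed level of the 11 genes in the libraries was 1527 to 1690.1 CPM in DMSO1 and 1095 to 1214 CPM in 5FU at 6 hours, and 1433 to 1538 CPM in DMSO2, 1594 to 1666 CPM in Ace and 871 to 1027 CPM in Dox. At 24 hours the sums of DMSO2 (1013 to 1131 CPM) and Dox (1033 to 1253 CPM) overlapped, with members higher and lower within the same libraries.

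Srsf1, the founding SR protein, known for promoting the use of nearby splice sites, fell most among the called SR genes in both 5FU and Dox at 6 hours. It lay at 263 to 319.5 CPM (median 289) in DMSO1 and 99.5 to 119 CPM (median 102) in 5FU, a log2 fold change of -1.47 ± 0.050 SE, FDR 3.53e-34. In DMSO2 it lay at 239 to 275 CPM (median 252) and in Dox at 71.2 to 90.8 CPM (median 84.2), a log2 fold change of -1.65 ± 0.047 SE, FDR 2.34e-39. No treated library reached a control library in either comparison. At 24 hours the 5FU libraries lay above their controls, at 201 to 221 CPM (median 215) against 156 to 185 CPM (median 169) (0.32 ± 0.049 SE, FDR 4.92e-08). The Dox libraries stayed below theirs, at 77.3 to 87.9 CPM (median 86.3) against 166 to 185 CPM (median 175) (-1.06 ± 0.046 SE, FDR 7.51e-31). The 5FU effect on Srsf1 therefore changed sign between the time points, with a difference of 1.798 ± 0.070 SE, FDR 1.62e-30.

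Srsf6, a relative of Srsf4 and Srsf5 with a pair of RNA recognition motifs, fell in both drugs at both times. It lay at 185 to 207 CPM (median 196) in DMSO1 and 74.3 to 88.1 CPM (median 84.6) in 5FU at 6 hours (-1.23 ± 0.055 SE, FDR 4.56e-28), and at 181 to 190.1 CPM (median 185) in DMSO2 and 92.7 to 112 CPM (median 95.6) in Dox (-0.92 ± 0.050 SE, FDR 4.34e-25). Every treated library lay below every control library in both comparisons. In Ace the same gene rose to 228 to 238 CPM (median 233) at 6 hours (0.33 ± 0.051 SE, FDR 3.01e-07), with every Ace library above every DMSO2 library. At 24 hours it lay at 135 to 155 CPM (median 149.6) in Ace and 133 to 157 CPM (median 148) in DMSO2 and was not called (0.045 ± 0.050 SE, FDR 0.48). The lowest DMSO1 library at 24 hours was library 1.

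Srsf5 was called in all 6 drug comparisons, 3 times higher and 3 times lower. At 6 hours it was lower in 5FU, at 65.9 to 86.2 CPM (median 78.3) against 167 to 179 CPM (median 175) (-1.18 ± 0.080 SE, FDR 1.03e-19). It was higher in Ace, at 229 to 247 CPM (median 237) against 148 to 171 CPM (median 163) in DMSO2 (0.54 ± 0.075 SE, FDR 1.92e-08). In Dox it was lower at 6 hours, at 102 to 131 CPM (median 112) (-0.53 ± 0.074 SE, FDR 3.71e-09). By 24 hours of Dox the order had turned, with 287 to 407 CPM (median 345) in Dox and 131 to 176 CPM (median 162) in DMSO2 (1.103 ± 0.073 SE, FDR 1.09e-21). The 5FU libraries remained below DMSO1 at 24 hours, at 80.5 to 96.7 CPM (median 86.4) against 107 to 186 CPM (median 165) (-0.86 ± 0.080 SE, FDR 1.40e-14), and the Ace libraries remained above DMSO2 at 177 to 211 CPM (median 196) (0.30 ± 0.073 SE, FDR 5.24e-04). The groups did not overlap in any of these 6 comparisons, and the Dox effect differed between the times by 1.63 ± 0.10 SE, FDR 6.84e-22.

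Srsf7, which together with Srsf3 also carries mRNA to the export machinery, rose in Dox at both times and fell in 5FU at both. At 6 hours it lay at 108 to 123 CPM (median 121) in Dox against 74.2 to 83 CPM (median 77.9) in DMSO2 (0.60 ± 0.051 SE, FDR 1.15e-16) and at 50.1 to 64 CPM (median 56.4) in 5FU against 76.7 to 93.8 CPM (median 84) in DMSO1 (-0.57 ± 0.055 SE, FDR 9.74e-14). At 24 hours the Dox libraries held 92.3 to 132 CPM (median 107) against 46.5 to 51 CPM (median 47.9) (1.15 ± 0.052 SE, FDR 3.88e-30), the largest increase among the members in that comparison. The 5FU libraries held 31.5 to 35.9 CPM (median 32.4) against 40.5 to 48 CPM (median 46) (-0.47 ± 0.058 SE, FDR 2.06e-10). Ace gave 89 to 101 CPM (median 94.1) at 6 hours (0.28 ± 0.053 SE, FDR 1.09e-05). Dox and 5FU libraries thus lay on opposite sides of their controls without overlap at both times.

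Srsf4 was the member whose 6-hour response separated Dox from 5FU most among the called SR genes. It lay at 21 to 28.6 CPM (median 24.7) in Dox and 64.4 to 77 CPM (median 69.2) in DMSO2 at 6 hours (-1.52 ± 0.053 SE, FDR 7.81e-35), and at 50.2 to 58.4 CPM (median 54.1) against 72.3 to 80.5 CPM (median 75.2) at 24 hours (-0.48 ± 0.050 SE, FDR 2.53e-13). The 24-hour decrease was smaller than the 6-hour decrease by 1.04 ± 0.073 SE, FDR 5.28e-20. In 5FU at 6 hours it lay at 72 to 86 CPM (median 80.4) against 64.4 to 74.6 CPM (median 69.8), overlapping groups with a call at 0.19 ± 0.054 SE, FDR 0.00221. That call was lost without 5FU library 1 (0.16, FDR 0.0127) or DMSO1 library 2 (0.16, FDR 0.012), and with library size in place of TMM (0.11, FDR 0.123).

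Srsf2, first known as SC35, lay at 342 to 363 CPM (median 351) in Ace and 273 to 311 CPM (median 290.1) in DMSO2 at 6 hours (0.28 ± 0.054 SE, FDR 1.69e-05) and fell in Dox at 6 hours (-0.50 ± 0.052 SE, FDR 4.10e-13). Srsf3, the smallest of the family, fell in Dox by 0.95 at 6 hours and by 0.59 at 24 hours on the log2 scale. Srsf10, a repressor of splicing after heat shock when dephosphorylated, fell in Dox (-0.67 ± 0.062 and -0.53 ± 0.062) and rose in 5FU at 24 hours (0.45 ± 0.066). Srsf9, close in sequence to Srsf1, fell in 5FU and Dox at both times, by 0.29 to 0.50 on the log2 scale. Srsf11 was called higher in Ace at 24 hours, at 103 to 114 CPM (median 112) against 92.5 to 104 CPM (median 97.3) (0.18 ± 0.047 SE, FDR 0.00143). Srsf12, with 10 to 52 counts per library, fell in 5FU at 6 hours (-0.96 ± 0.19 SE, FDR 1.87e-05).

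**Figure D2:**
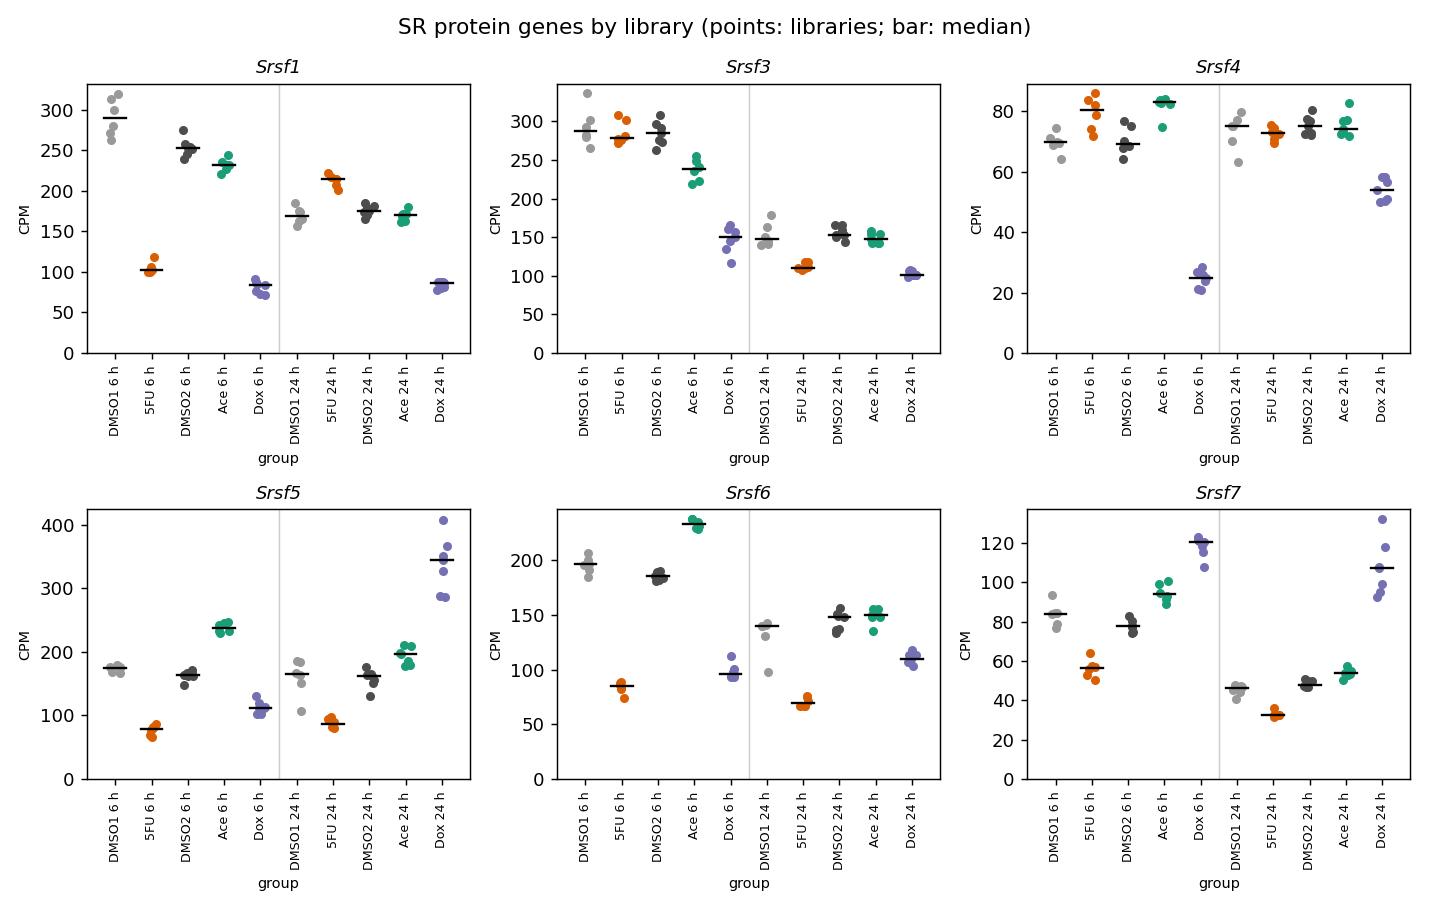
Levels in CPM (vertical axes, linear and starting at 0) of 6 SR protein genes in every library (points) of the 10 groups (horizontal axes), with the group median as a bar. Srsf1 drops in 5FU at 6 hours and in Dox at both times, Srsf5 and Srsf7 stand above their controls in Dox at 24 hours, and Srsf4 is lowest in Dox at 6 hours.

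SR genes were called in both directions in Dox, so promoters of genes of each kind are shown. RefSeq's promoter table for the rat assembly GRCr8 held 33 of the 38 members, all 11 SR genes among them; Hnrnpll, Hnrnpr-ps2, Celf2, Rbfox2 and Rbm20 had no entry. The 250 bases before the annotated start are printed 5′ to 3′ for Srsf1 and Srsf6, which fell in Dox at both times, and for Srsf5 and Srsf7, which rose in Dox at 24 hours. Capitals mark matches on either strand to 6 motifs. They were the CCAAT box, the GC box with the letters GGGCGG, the core of the cAMP response element with TGACG, an ETS site with CCGGAAG, the TATA box with TATAAA, and the E-box with CACGTG.
Srsf1 (chr10:73336248-73336497, plus strand): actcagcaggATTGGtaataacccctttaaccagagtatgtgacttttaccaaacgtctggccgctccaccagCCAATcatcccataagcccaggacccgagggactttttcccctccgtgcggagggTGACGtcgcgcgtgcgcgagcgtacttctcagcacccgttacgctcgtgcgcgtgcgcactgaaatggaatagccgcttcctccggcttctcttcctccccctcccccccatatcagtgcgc
Srsf6 (chr3:172008822-172009071, plus strand): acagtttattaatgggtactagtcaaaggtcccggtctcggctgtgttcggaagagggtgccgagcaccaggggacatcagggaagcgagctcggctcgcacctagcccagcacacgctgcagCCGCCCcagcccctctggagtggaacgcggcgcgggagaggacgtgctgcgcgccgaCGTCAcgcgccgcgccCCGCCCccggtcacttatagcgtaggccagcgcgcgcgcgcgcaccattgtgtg
Srsf5 (chr6:106336506-106336755, plus strand): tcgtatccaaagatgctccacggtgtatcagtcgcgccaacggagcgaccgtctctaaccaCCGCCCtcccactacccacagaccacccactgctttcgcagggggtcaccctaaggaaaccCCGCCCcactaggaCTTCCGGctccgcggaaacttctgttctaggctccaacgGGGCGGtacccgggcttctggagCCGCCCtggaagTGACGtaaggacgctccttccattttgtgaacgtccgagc
Srsf7 (chr6:20563802-20564051, plus strand): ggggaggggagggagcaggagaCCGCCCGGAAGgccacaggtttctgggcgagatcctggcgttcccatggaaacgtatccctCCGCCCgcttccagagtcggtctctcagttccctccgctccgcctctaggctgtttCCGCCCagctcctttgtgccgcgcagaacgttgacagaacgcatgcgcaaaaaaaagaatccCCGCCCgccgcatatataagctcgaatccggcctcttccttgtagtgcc

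The Srsf1 promoter held 2 CCAAT boxes and 1 TGACG match and no GC box, and the Srsf6 promoter held 2 GC boxes and 1 TGACG match. The Srsf5 and Srsf7 promoters each held 4 GC boxes and 1 ETS site, Srsf5 also had 1 TGACG match, and in Srsf7 a GC box and the ETS site share 2 bases. Among the 33 members CCAAT was found in 18 promoters, against 34.8% of the 11403 genes of the table with a promoter and 34.3% of all 27457 promoters. TGACG was found in 18 (27% and 19%), GGGCGG in 23 (56.8% and 32.4%), CCGGAAG in 6 (13.7% and 7.74%), CACGTG in 5 (7.87% and 5.79%) and TATAAA in 4 (6.88% and 13.1%). CCAAT stood in 12 of 16 hnRNP promoters and in 4 of 11 SR promoters. A GC box stood in 9 of the 11 SR promoters, and an ETS site in 4, those of Srsf4, Srsf5, Srsf7 and Srsf11. Of these 4 genes Srsf4 was lower in Dox at both times, and Srsf7 and Srsf11 were higher at both. Whether any motif went with the direction of change was not tested. The members' promoters held a median of 22 CG dinucleotides, against 16 over the genes of the table. A match describes the sequence and not a bound site.

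The hnRNP genes had more members called lower than higher in all 6 drug comparisons, except that Ace at 24 hours was even with library size in place of TMM (3 and 3). At 6 hours 2 of the 18 were called higher and 9 lower in 5FU, 4 higher and 8 lower in Dox, and 0 higher and 9 lower in Ace. At 24 hours the counts were 2 higher and 7 lower in 5FU and 4 higher and 11 lower in Dox. Ace had 2 higher and 4 lower. Of all genes 23.4% were called higher and 24.5% lower in 5FU at 6 hours. The shares were 31.5% and 32.7% in Dox and 16.5% and 15.2% in Ace. At 24 hours they were 28% and 27.8% in 5FU, 40.4% and 41% in Dox and 18.2% and 19.1% in Ace. In Ace at 6 hours hnRNP and SR genes thus had opposite splits, 0 higher to 9 lower against 6 higher to 1 lower. The summed hnRNP level at 24 hours was 3086 to 3950.3 CPM in DMSO1 and 2769.5 to 3026 CPM in 5FU, and 3694 to 3842 CPM in DMSO2, 3438 to 3614 CPM in Ace and 2815 to 3246 CPM in Dox.

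Hnrnpa1, which represses exons through silencer sequences, fell in 5FU and Dox at 24 hours. It lay at 169.9 to 192 CPM (median 184) in 5FU against 309 to 537 CPM (median 478) in DMSO1 (-1.31 ± 0.081 SE, FDR 1.03e-21) and at 147 to 199 CPM (median 154) in Dox against 448 to 506 CPM (median 488) in DMSO2 (-1.605 ± 0.076 SE, FDR 3.96e-29). Neither pair of groups overlapped. At 6 hours of Dox it lay at 392 to 577 CPM (median 532) against 501 to 591 CPM (median 517) and was not called (-0.024 ± 0.073 SE, FDR 0.774), so the Dox effect differed between the times by -1.58 ± 0.10 SE, FDR 4.51e-21. Ace gave a smaller decrease at both times, -0.37 ± 0.077 SE, FDR 5.75e-05, at 6 hours and -0.43 ± 0.074 SE, FDR 1.36e-06, at 24 hours. Reads from its 51 annotated pseudogenes could be part of these counts. Its close relative Hnrnpa2b1 also fell at 24 hours, by 0.58 in 5FU and by 1.09 in Dox on the log2 scale, and had no call in either drug at 6 hours.

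Hnrnpdl and Hnrnpd, paralogues of which HNRNPD (AUF1) binds AU-rich elements of unstable mRNAs, were both called lower in Dox at both times and in Ace at 6 hours and parted in 5FU. Hnrnpdl rose in 5FU at 24 hours, at 169 to 180.3 CPM (median 176) against 81.3 to 121 CPM (median 86.1) (0.93 ± 0.065 SE, FDR 1.85e-19), although DMSO1 library 1 was the highest of its group. It fell in Dox, at 50.6 to 70.4 CPM (median 64.8) against 132 to 144 CPM (median 137) at 6 hours (-1.098 ± 0.061 SE, FDR 9.96e-25) and at 47.4 to 58.5 CPM (median 52.1) against 87.1 to 96.1 CPM (median 92.5) at 24 hours (-0.78 ± 0.061 SE, FDR 2.52e-18). It also fell in Ace at 6 hours, at 99.3 to 108 CPM (median 105) (-0.41 ± 0.062 SE, FDR 2.05e-07). All of these groups were apart, and in Ace at 24 hours Hnrnpdl was not called (-0.038 ± 0.060 SE, FDR 0.639). Hnrnpd fell in 5FU at 6 hours (-0.41 ± 0.061 SE, FDR 5.10e-08) and was not called at 24 hours (-0.047 ± 0.061 SE, FDR 0.518). It fell in Ace, at 88.7 to 105 CPM (median 96.3) against 125 to 142 CPM (median 131) at 6 hours (-0.46 ± 0.059 SE, FDR 3.07e-09) and at 77 to 86.8 CPM (median 81.9) against 95.7 to 116 CPM (median 104) at 24 hours (-0.33 ± 0.057 SE, FDR 1.35e-06). It also fell in Dox (-0.62 ± 0.057 and -0.63 ± 0.057).

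The small rise of Hnrnpdl in 5FU at 6 hours, at 119 to 163 CPM (median 138) against 102 to 131 CPM (median 122) (0.20 ± 0.064 SE, FDR 0.00589), depended on single libraries. The call was lost without 5FU library 1, 2 or 6 (FDR 0.017, 0.0112 and 0.0429) or DMSO1 library 1 or 4 (FDR 0.0128 and 0.0344), with log2 fold changes of 0.15 to 0.20. Hnrnpul2, which with Hnrnpul1 takes part in DNA end resection, was the third member called higher there, at 128 to 156 CPM (median 138) against 121 to 132 CPM (median 127) (0.17 ± 0.046 SE, FDR 0.0014). Its call was lost without 5FU library 4 (0.13, FDR 0.0127). All 3 increases in 5FU at 6 hours were lost with library size in place of TMM and when only the 5FU and DMSO1 groups of that time were fitted.

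Hnrnpl, which binds CA repeats, and its paralogue Hnrnpll, best known for CD45 splicing in T cells, fell in 5FU. Hnrnpll lay at 24.1 to 30.1 CPM (median 26.3) in 5FU and 58.2 to 69.5 CPM (median 65.6) in DMSO1 at 6 hours (-1.28 ± 0.056 SE, FDR 3.74e-28) and at 23.3 to 29.1 CPM (median 25.5) against 47.2 to 58 CPM (median 52.4) at 24 hours (-0.99 ± 0.057 SE, FDR 3.63e-23). Hnrnpl lay at 140.03 to 170.02 CPM (median 158) in 5FU against 227 to 341 CPM (median 323) in DMSO1 at 24 hours (-1.0 ± 0.058 SE, FDR 6.34e-23). Neither gene's groups overlapped, although DMSO1 library 1 was the lowest of its group for Hnrnpl. In Dox at 24 hours Hnrnpl was higher, at 367 to 419 CPM (median 389) against 316 to 332 CPM (median 319.5) (0.28 ± 0.053 SE, FDR 2.14e-06), and Hnrnpll was not called (0.14 ± 0.051 SE, FDR 0.0109). In Ace Hnrnpl was lower at 6 hours (-0.24 ± 0.055 SE, FDR 2.38e-04) and higher at 24 hours, at 345 to 388 CPM (median 356) (0.16 ± 0.053 SE, FDR 0.00898). The 24-hour Ace call was lost without any 1 of Ace libraries 1, 2, 5 and 6 or DMSO2 libraries 1, 2, 4, 5, 6 and 7 (log2 fold changes of 0.15 to 0.17).

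Hnrnpr, a relative of SYNCRIP, fell in 5FU and Dox at both times. It lay at 39.5 to 45.9 CPM (median 40.8) in 5FU against 68.7 to 99.1 CPM (median 88.2) in DMSO1 at 24 hours (-1.05 ± 0.060 SE, FDR 3.29e-23) and at 43.7 to 57.8 CPM (median 50.6) in Dox against 85.5 to 97.4 CPM (median 91.4) in DMSO2 (-0.85 ± 0.055 SE, FDR 3.30e-22), with no overlap. Its annotated pseudogene Hnrnpr-ps2 had 0 to 11 counts in the Dox libraries and 0 to 173 in the DMSO2 libraries at 24 hours, and 0 to 47 against 23 to 166 at 6 hours. The fitted log2 fold changes of -2.71 ± 0.83 SE, FDR 0.00288, and -4.75 ± 1.18 SE, FDR 2.27e-04, depend on the prior count, and the groups overlapped at both times. The 6-hour call was lost without DMSO2 library 6 (FDR 0.0124) and in the DESeq2 Wald test (FDR 0.0244). Without Dox library 6 the 6-hour value was -4.28, and without Dox library 2 the 24-hour value was -8.55. Leaving out each library gave -4.28 to -2.35 at 6 hours and -8.55 to -4.000 at 24 hours. Which of its reads come from Hnrnpr was not tested.

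Hnrnph1, Hnrnph2 and Hnrnpf bind runs of G in RNA. Hnrnph1 rose in Dox at 6 hours, at 198 to 297 CPM (median 273) against 170.2 to 196 CPM (median 184) (0.53 ± 0.064 SE, FDR 5.34e-11), and fell at 24 hours, at 105 to 129 CPM (median 111) against 134 to 157 CPM (median 144) (-0.38 ± 0.065 SE, FDR 3.64e-07). Hnrnph2 rose in 5FU at 24 hours, at 122 to 135 CPM (median 126) against 72.1 to 87.1 CPM (median 77.3) (0.70 ± 0.052 SE, FDR 1.57e-18), where Hnrnph1 fell (-0.50 ± 0.070 SE, FDR 7.69e-09). The 5FU and DMSO1 libraries at 24 hours did not overlap for either gene, so these near relatives lay on opposite sides of the control. Hnrnpf rose in Dox at both times (0.27 ± 0.039 and 0.42 ± 0.039).

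Among the remaining hnRNP genes, Hnrnpm fell in Dox at 24 hours (-0.77 ± 0.042 SE, FDR 5.98e-26) and was called in no other drug comparison. Hnrnpk, which binds C-rich sequences, fell in 5FU at 24 hours (-0.64 ± 0.050 SE, FDR 3.06e-17). Hnrnpu, a scaffold of chromatin and RNA, fell in 5FU at 6 hours (-0.49 ± 0.045 SE, FDR 1.46e-14), and Hnrnpa3 did so too (-0.60 ± 0.072 SE, FDR 1.39e-10). Hnrnpul1 was lower in Dox at 6 hours and higher at 24 hours (-0.25 ± 0.040 and 0.14 ± 0.040). Hnrnpul2 was higher in Dox at both times (0.22 ± 0.042 and 0.31 ± 0.042). Hnrnpa0 was lower in Dox at both times (-0.40 ± 0.12 and -0.41 ± 0.12).

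**Figure D3:**
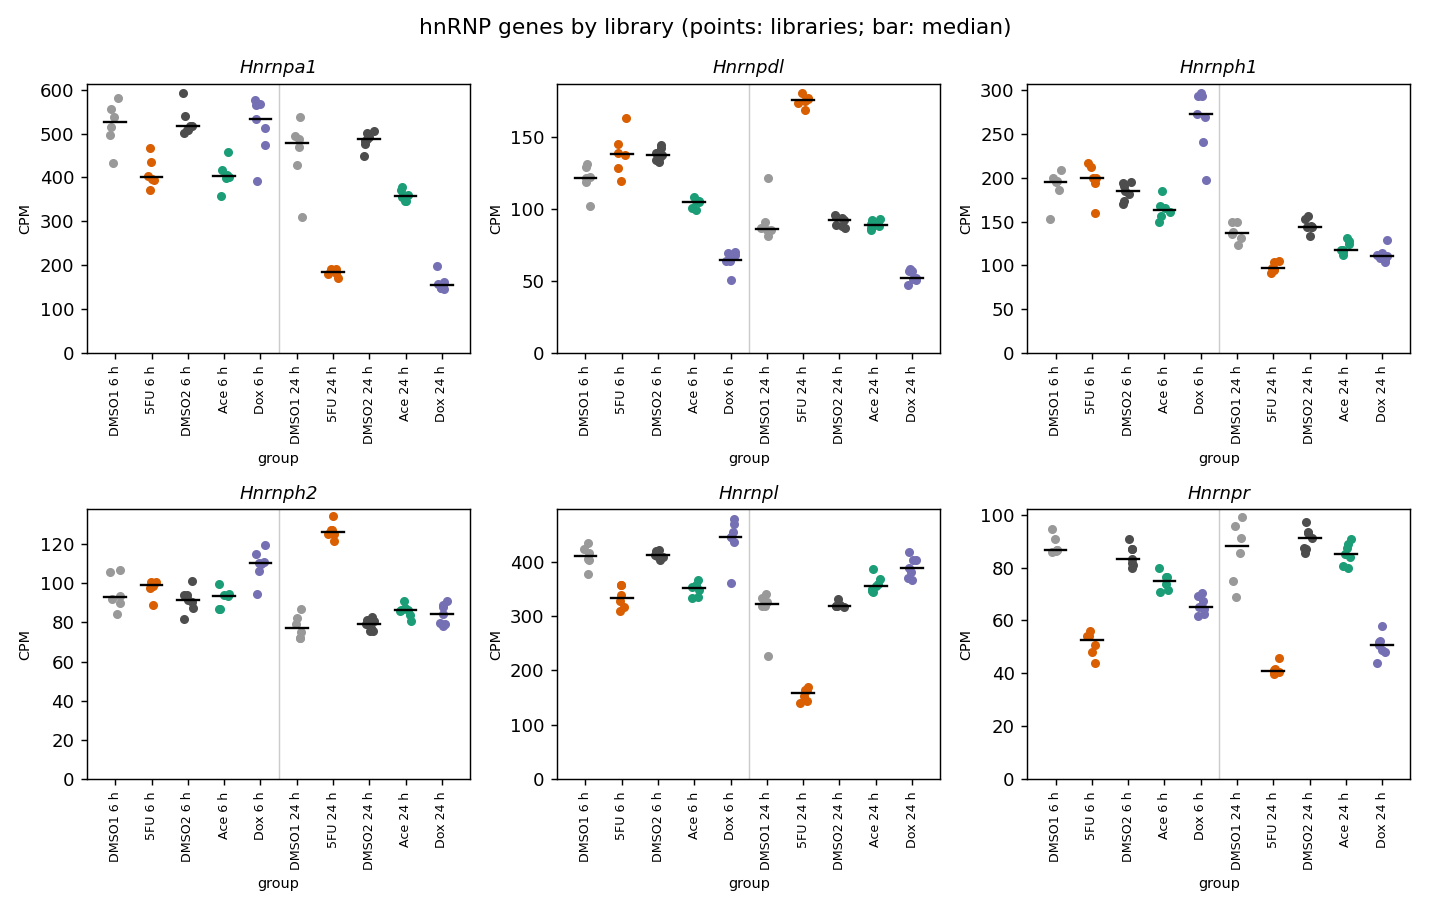
Levels in CPM (vertical axes, linear and starting at 0) of 6 hnRNP genes in every library (points) of the 10 groups (horizontal axes), with the group median as a bar. Hnrnpa1 drops in 5FU and Dox at 24 hours, Hnrnpdl rises in 5FU at 24 hours and drops in Dox, and Hnrnpl drops in 5FU at 24 hours.

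At 6 hours 0 of the 9 named regulators were called higher and 7 lower in 5FU, and in Dox 1 was called higher and 6 lower. At 24 hours 2 were called higher and 6 lower in 5FU, and in Dox 2 were called higher and 7 lower. Ace gave 1 call at 6 hours and 2 at 24 hours, all lower. Of all genes 47.9% were called in 5FU at 6 hours (24.5% lower) and 55.8% at 24 hours (27.8% lower). The shares in Dox were 64.2% (32.7% lower) and 81.4% (41% lower), and those in Ace 31.7% and 37.2%. The class medians were -0.28 in Dox at 6 hours and -0.76 at 24 hours. Expression of cardiomyocyte markers moved as well, and these values stand beside the regulators below, since in bulk RNA fewer cells of a type and less RNA per cell cannot be told apart.

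Rbm20, the splicing repressor of titin exons that is mutated in a form of dilated cardiomyopathy, fell in Dox. At 6 hours it lay at 75.6 to 103 CPM (median 93.4) in Dox and 236 to 287 CPM (median 274) in DMSO2 (-1.53 ± 0.071 SE, FDR 1.42e-28). At 24 hours it lay at 56.2 to 65.9 CPM (median 62.5) in Dox and 259 to 325 CPM (median 288) in DMSO2 (-2.27 ± 0.073 SE, FDR 4.69e-38). The Dox libraries were far below the controls at both times, and the 24-hour effect minus the 6-hour effect was -0.74 ± 0.099 SE, FDR 8.80e-10. In 5FU it lay at 141 to 249 CPM (median 212) at 6 hours (-0.40 ± 0.074 SE, FDR 6.10e-06), overlapping DMSO1 at 245 to 292 CPM (median 277), and at 203 to 238 CPM (median 218) against 273 to 313 CPM (median 285) at 24 hours (-0.39 ± 0.074 SE, FDR 5.11e-06). In Ace at 6 hours, at 204 to 248 CPM (median 223) (-0.25 ± 0.072 SE, FDR 0.00324), the call was lost without Ace library 6 (FDR 0.0169) or DMSO2 library 6 (FDR 0.0118). Ace at 24 hours, at 259 to 284 CPM (median 274), was not called (-0.13 ± 0.068 SE, FDR 0.126).

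Rbm24, a muscle splicing factor needed for sarcomere assembly, fell in both 5FU and Dox at both times. In Dox it lay at 36.7 to 46.9 CPM (median 44.9) against 113 to 138 CPM (median 127) at 6 hours (-1.55 ± 0.085 SE, FDR 6.09e-25) and at 51.2 to 69.2 CPM (median 57.7) against 186 to 223 CPM (median 211) at 24 hours (-1.81 ± 0.084 SE, FDR 2.61e-29). In 5FU it lay at 47.2 to 97.8 CPM (median 80.5) against 127 to 143 CPM (median 135) at 6 hours (-0.77 ± 0.089 SE, FDR 4.48e-11) and at 105 to 124 CPM (median 114) against 182 to 221 CPM (median 216) at 24 hours (-0.86 ± 0.088 SE, FDR 4.84e-13). The groups were apart in these 4 comparisons, and the Dox effect minus the 5FU effect was -0.78 ± 0.12 at 6 hours (FDR 1.17e-07) and -0.94 ± 0.12 at 24 hours (FDR 2.43e-10). In Ace it lay at 112 to 143 CPM (median 124) at 6 hours and 182 to 214 CPM (median 207) at 24 hours, with no call (0.0073 ± 0.085 and -0.038 ± 0.081).

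In Dox at 24 hours 0 of the 11 markers were called higher and 10 lower, with a median of -2.66, and their summed level was 12710.2 to 17244 CPM against 38521 to 50893 CPM in DMSO2. In Dox at 6 hours 5 were called higher and 4 lower, with a median of 0.36, and the summed level was 38654 to 49170.5 CPM against 41205 to 46647 CPM. Rbm20 and Rbm24 were lower in the same 6-hour Dox libraries. The sum follows its most abundant genes, and a less abundant marker can move apart from it. Nkx2-5 had at most 692 counts in Dox and 6084 in DMSO2 at 6 hours. Whether these regulators moved with the markers was not tested. In 5FU at 24 hours the sum was 25807 to 28145 CPM against 35879 to 43137 CPM in DMSO1 (1 higher, 6 lower). Of all genes tested, 81.4% were called after 24 hours of Dox (40.4% higher, 41% lower). After 6 hours of Dox the share was 64.2% (31.5% higher, 32.7% lower). For 5FU at 24 hours it was 55.8% (28% higher, 27.8% lower).

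Markers of other cells also moved with Dox, where 81.4% of all genes were called at 24 hours (40.4% higher, 41% lower). At 24 hours 0 of 10 fibroblast markers were called higher and 9 lower (sum 1983 to 4169 CPM against 15216 to 19018 CPM), 0 of 8 endothelial markers higher and 8 lower (sum 25.6 to 55.9 CPM against 278 to 367 CPM), and 0 of 10 macrophage markers higher and 10 lower (sum 45.2 to 64 CPM against 119 to 146 CPM). Of 8 smooth muscle and pericyte markers 4 were called higher and 3 lower (sum 2015 to 4959.9 CPM against 2646 to 2936 CPM). Most of this sum in DMSO2 was Des (desmin), which cardiomyocytes express too, at 1606 to 3416 CPM in Dox and 1671 to 1915 CPM in DMSO2. Without Des, a choice made after seeing the values, the sum of the other 7 was 409 to 1717 CPM against 908 to 1021 CPM, with overlap. At 6 hours of Dox the counts were 1 higher and 6 lower for fibroblast, 0 and 8 for endothelial, 2 and 2 for macrophage and 5 and 1 for smooth muscle markers. In 5FU at 24 hours they were 0 and 10, 0 and 6, 1 and 4, and 2 and 5, and in Ace at 24 hours 0 and 8, 0 and 5, 0 and 6, and 0 and 4, in the same order. The share of all genes called was 64.2% for the 6-hour Dox counts and 55.8% for those of 5FU. For Ace it was 37.2% (18.2% higher, 19.1% lower). Whether any marker list departed from its share was not tested. Cldn5 was at 0 counts in 8 libraries and Cd163 in 4, and no other marker in the table was at 0 in any library. Their part in the changes of the splicing factor genes was not tested.

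Rbfox1, expressed in muscle and neurons, was lower in all 3 drugs at 24 hours. It lay at 1.25 to 2.87 CPM (median 2.14) in Dox and 3.28 to 4.24 CPM (median 3.83) in Ace, against 5.72 to 8.45 CPM (median 7.36) in DMSO2, and at 1.39 to 3.50 CPM (median 2.61) in 5FU against 5.76 to 7.25 CPM (median 6.88) in DMSO1. The log2 fold changes were -1.72 ± 0.16 SE, FDR 8.47e-16, in Dox, -0.88 ± 0.14 SE, FDR 6.47e-07, in Ace, and -1.39 ± 0.17 SE, FDR 5.75e-11, in 5FU. All treated libraries lay below all control libraries. At 6 hours it lay at 1.48 to 2.90 CPM (median 2.35) in Dox, 2.41 to 4.36 CPM (median 2.53) in Ace and 3.17 to 5.55 CPM (median 4.11) in DMSO2, with a call in Dox (-0.89 ± 0.16 SE, FDR 1.36e-06) and none in Ace (-0.48 ± 0.16 SE, FDR 0.0106), where a call appeared without any 1 of Ace libraries 1 and 2 and DMSO2 libraries 1, 3 and 4. In 5FU at 6 hours, at 1.598 to 2.47 CPM (median 2.23) against 2.63 to 3.86 CPM (median 3.23) (-0.55 ± 0.17 SE, FDR 0.00545), the call was lost without 5FU library 1 (FDR 0.0202), DMSO1 library 2 (FDR 0.012) or DMSO1 library 5 (FDR 0.0185).

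Rbfox2, its more widely expressed paralogue, moved less. It lay at 55.2 to 77.8 CPM (median 67.8) in Dox against 73.6 to 94.9 CPM (median 91.3) in DMSO2 at 24 hours (-0.40 ± 0.061 SE, FDR 2.13e-08) and at 52.7 to 64.5 CPM (median 59.4) against 62.2 to 79.6 CPM (median 72.2) at 6 hours (-0.28 ± 0.061 SE, FDR 4.56e-05), with overlap at both times. In 5FU at 6 hours it lay at 50.9 to 64.5 CPM (median 60.3) against 70.3 to 83.4 CPM (median 78.9) (-0.42 ± 0.066 SE, FDR 1.30e-07), without overlap. At 24 hours of 5FU, at 69.2 to 78.8 CPM (median 72.4) against 71.6 to 91.7 CPM (median 84.8) (-0.20 ± 0.065 SE, FDR 0.00649), the call was lost without any 1 of 5FU libraries 2 to 6 or DMSO1 libraries 2 to 5 (log2 fold changes of -0.20 to -0.17). In Ace it lay at 56.9 to 67.7 CPM (median 64.4) and 73.4 to 85.8 CPM (median 79.4) and was not called (-0.17 ± 0.063 and -0.15 ± 0.060), but a call appeared at 6 hours without DMSO2 library 7 (FDR 0.00786) and at 24 hours without DMSO2 library 5 (FDR 0.00585).

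Ptbp1, which represses muscle and neuronal exons and normally falls as these cells mature, was the regulator that rose most in Dox. It lay at 263 to 293 CPM (median 276) against 199 to 229 CPM (median 216) in DMSO2 at 6 hours (0.35 ± 0.052 SE, FDR 2.16e-08) and at 249 to 315 CPM (median 277) against 158 to 176 CPM (median 164) at 24 hours (0.75 ± 0.052 SE, FDR 7.64e-21). The Dox libraries stood above every DMSO2 library at both times. In 5FU at 24 hours it was lower, at 106 to 115 CPM (median 109.6) against 107 to 158 CPM (median 143) (-0.34 ± 0.057 SE, FDR 4.62e-07), and at 6 hours, at 219.7 to 267 CPM (median 227) against 199 to 229 CPM (median 215), it was not called (0.12 ± 0.056 SE, FDR 0.0719). In Ace it lay at 210.4 to 226 CPM (median 219.6) at 6 hours, with no call (0.011 ± 0.054 SE, FDR 0.898), and at 134 to 158 CPM (median 141) at 24 hours (-0.21 ± 0.052 SE, FDR 5.35e-04).

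The MBNL and CELF proteins oppose each other on many exons that switch in the heart after birth, and myotonic dystrophy disturbs both. Mbnl1 fell in Dox, at 22.7 to 31.5 CPM (median 27.6) against 32 to 46.6 CPM (median 39.1) at 6 hours (-0.51 ± 0.070 SE, FDR 2.43e-09) and at 26.1 to 33.2 CPM (median 28.4) against 46.7 to 52.5 CPM (median 50.4) at 24 hours (-0.80 ± 0.070 SE, FDR 1.57e-16). Mbnl2 rose in Dox at 24 hours, at 157 to 237 CPM (median 179) against 127 to 139 CPM (median 133) (0.48 ± 0.061 SE, FDR 1.37e-10), so these paralogues lay on opposite sides of the control. At 6 hours Mbnl2 lay at 97.1 to 119 CPM (median 115) in Dox against 87 to 118 CPM (median 100.4) and was not called (0.14 ± 0.061 SE, FDR 0.0347), although a call appeared without Dox library 7 or DMSO2 library 4. In 5FU Mbnl2 was lower at 6 hours, at 71.6 to 98.7 CPM (median 91.3) against 109.5 to 129 CPM (median 111) (-0.39 ± 0.066 SE, FDR 9.32e-07), and higher at 24 hours, at 146 to 153 CPM (median 151) against 117 to 135 CPM (median 126) (0.26 ± 0.066 SE, FDR 4.78e-04). Mbnl1 in 5FU lay at 33 to 43.5 CPM (median 37.1) against 41.2 to 49 CPM (median 45) at 6 hours (-0.27 ± 0.074 SE, FDR 0.00145) and at 46.8 to 53.4 CPM (median 49) against 36.2 to 48 CPM (median 44.7) at 24 hours, with no call (0.17 ± 0.073 SE, FDR 0.036). In Ace neither was called. Mbnl1 lay at 32.5 to 39.8 CPM (median 36.4) and 39.3 to 51.1 CPM (median 43.2) (a call appeared at 24 hours without Ace library 7), and Mbnl2 at 91.4 to 101 CPM (median 94) and 122 to 135 CPM (median 124).

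Celf1 fell in Dox, at 75.8 to 87.5 CPM (median 84.8) against 87.2 to 111 CPM (median 104) at 6 hours (-0.27 ± 0.048 SE, FDR 1.47e-06) and at 65.5 to 85.5 CPM (median 69.5) against 91.6 to 95.7 CPM (median 94.1) at 24 hours (-0.41 ± 0.048 SE, FDR 1.62e-11). It rose in 5FU at 24 hours, at 117 to 129.97 CPM (median 119.5) against 79.5 to 94.8 CPM (median 88.2) (0.47 ± 0.052 SE, FDR 5.38e-12), every 5FU library standing above every DMSO1 library. At 6 hours of 5FU, at 91 to 99 CPM (median 97.9) against 93.5 to 114 CPM (median 105), it was not called (-0.12 ± 0.051 SE, FDR 0.0466). Celf2 fell in Dox at 24 hours, at 22.9 to 30.5 CPM (median 23.9) against 36.1 to 47.6 CPM (median 43) (-0.76 ± 0.087 SE, FDR 4.43e-12), and lay at 25.1 to 38 CPM (median 29.9) against 23.5 to 34.8 CPM (median 30.9) at 6 hours with no call (0.026 ± 0.086 SE, FDR 0.795). In 5FU Celf2 was lower at 6 hours, at 20.8 to 33 CPM (median 27.6) against 31.9 to 48.8 CPM (median 40.1) (-0.55 ± 0.093 SE, FDR 7.02e-07), and at 24 hours, at 29 to 34.1 CPM (median 33) against 34.3 to 45.1 CPM (median 40.1) (-0.30 ± 0.092 SE, FDR 0.00383). The 24-hour call was lost without 5FU library 5 (FDR 0.0196), DMSO1 library 2 (FDR 0.0228) or DMSO1 library 5 (FDR 0.0163). In Ace neither was called. Celf1 lay at 92.6 to 105 CPM (median 99.9) and 90.6 to 103 CPM (median 97.8), and Celf2 at 23.9 to 30.4 CPM (median 25.4) and 35.9 to 40.2 CPM (median 38.5), at 6 and 24 hours.

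**Figure D4:**
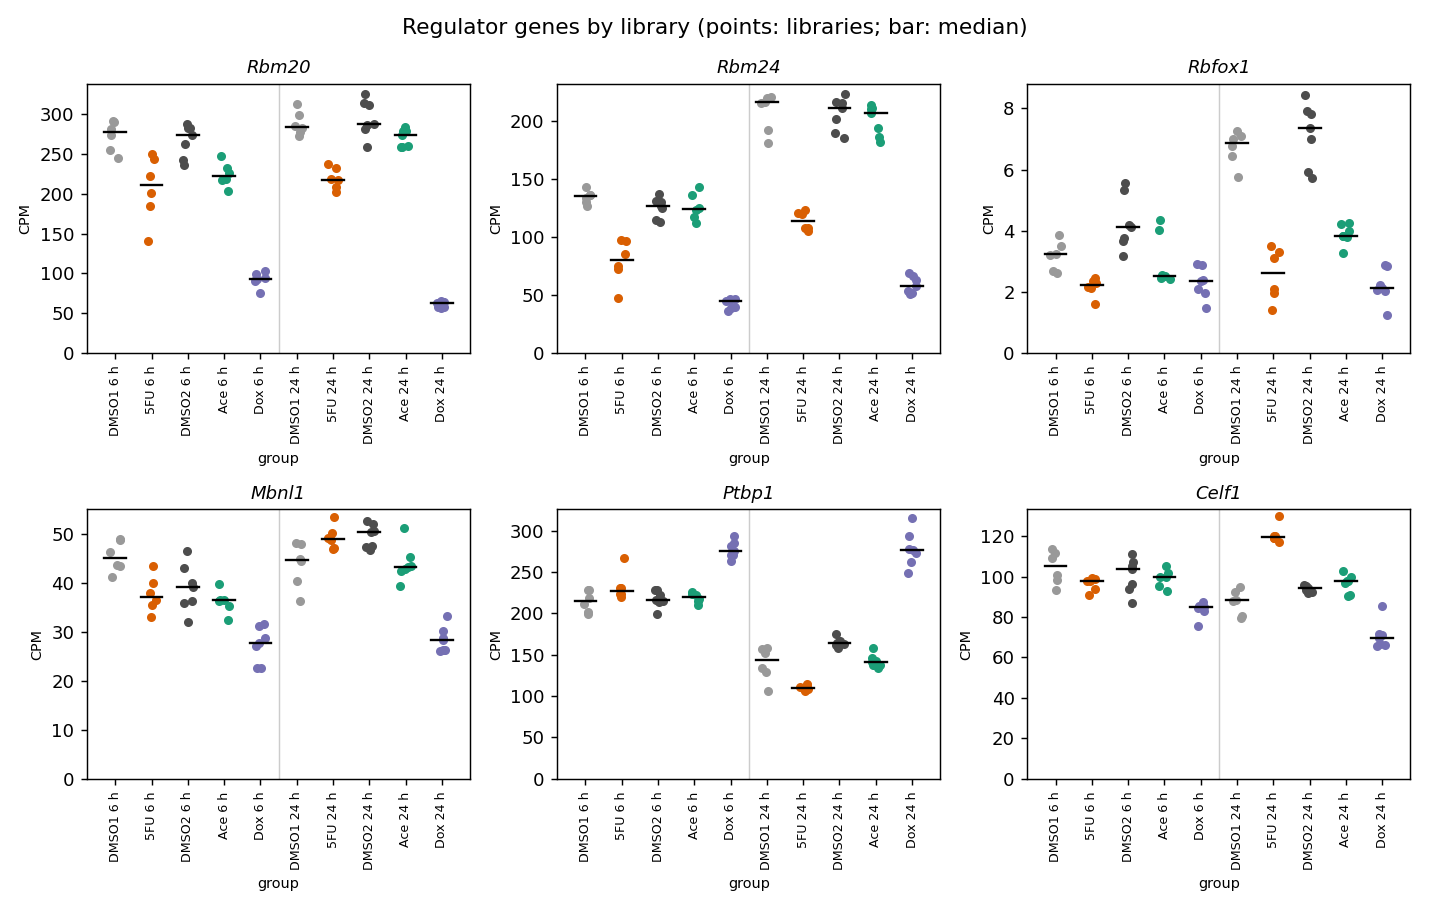
Levels in CPM (vertical axes, linear and starting at 0) of 6 regulators in every library (points) of the 10 groups (horizontal axes), with the group median as a bar. Rbm20 and Rbm24 drop in Dox at both times, Rbfox1 stands at its highest in the 24-hour controls, and Ptbp1 stands above its control in Dox at both times.

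The next comparisons asked whether a drug's effect on a gene differed between the time points, as the 24-hour effect minus the 6-hour effect. In Dox 24 members were called, 13 higher and 11 lower at 24 hours relative to 6 hours, against 64.8% (34% higher, 30.8% lower) of all genes. All 8 SR genes called were higher, with a median over the 11 of 0.54 where all genes had 0.065, and library size in place of TMM gave 9 higher and 0 lower. The hnRNP genes had 3 higher and 7 lower, a split that library size alone turned to 7 and 5, and the members as a whole went to 18 higher and 7 lower. That scaling moved the median of all genes in this comparison to 0.27. In 5FU 22 members were called, 13 higher and 9 lower (background 39.5%, 20.3% higher and 19.2% lower), and in Ace 3, 2 higher and 1 lower (background 11.6%, 5.58% higher and 6.06% lower), or 5 higher and 0 lower with library size alone.

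The 3 members called in Ace were Hnrnpdl (0.37 ± 0.087), Hnrnpl (0.41 ± 0.077) and Srsf6 (-0.28 ± 0.071). Of the members called at both times in Dox, 17 were lower at both, 5 higher at both, and 3, Srsf5, Hnrnph1 and Hnrnpul1, changed sides. Of all genes 23.8% were lower at both, 22.9% higher at both and 8.31% changed sides. In 5FU 14 were lower at both, 1, Hnrnpdl, higher at both, and 3, Srsf1, Srsf11 and Mbnl2, changed sides, against 12.5%, 12.8% and 5.01% of all genes. The drug comparisons at 6 and 24 hours have separate controls.

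**Figure D5:**
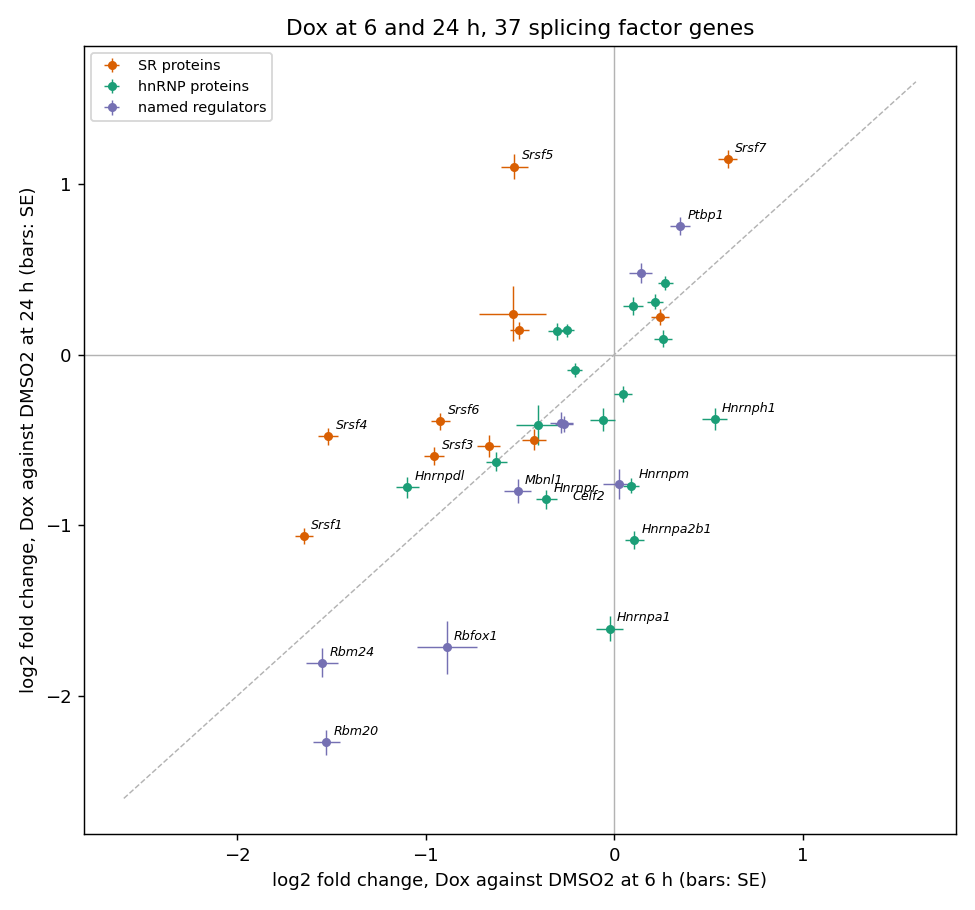
Log2 fold change of 37 members in Dox against DMSO2 at 6 hours (horizontal axis) and 24 hours (vertical axis), with bars for the SE, the dashed line marking equal effects; Hnrnpr-ps2 lies outside the range drawn. Hnrnpa1 and Hnrnpa2b1 sit near 0 at 6 hours and far below it at 24 hours, Srsf5 crosses from below to above 0, and most SR genes lie above the dashed line.

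Dox and 5FU were compared as effects, each against its own control. At 6 hours 24 members were called, 16 with a higher effect in Dox and 8 with a lower one (background 45.9%, 22% higher and 24% lower), and library size in place of TMM gave 12 and 13. At 24 hours 24 were called, 10 higher and 14 lower (background 71.1%, 35.8% higher and 35.4% lower). In place of TMM, DESeq2's size factors gave 13 and 13, and library size gave 12 and 13. At 6 hours 15 members were lower in both drugs and 1 was higher in both (background 13.2% and 11.8%). The 15 were 65.2% of the 23 members lower in Dox and 62.5% of the 24 lower in 5FU, close to the 60.5% of all 38 members that were lower in Dox. Of all genes lower in 5FU 53.7% were lower in Dox. Srsf7, Srsf11 and Hnrnpf were lower in 5FU and higher in Dox, and Srsf4 and Hnrnpdl were the reverse. At 24 hours 13 were lower in both and 2 higher in both (background 16.3% and 13.6%). The 13 were 54.2% of the 24 lower in Dox and 72.2% of the 18 lower in 5FU, where 63.2% of all 38 members and 58.6% of all genes lower in 5FU were lower in Dox. Srsf5, Srsf7, Hnrnpl and Ptbp1 were lower in 5FU and higher in Dox, and Srsf1, Srsf10, Hnrnpdl and Celf1 were higher in 5FU and lower in Dox.

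The differences in effect were largest, among members with at least 10 counts in every library, for Srsf4 at 6 hours and Srsf5 at 24 hours. Srsf4 had a Dox effect -1.702 ± 0.075 relative to that of 5FU at 6 hours (FDR 1.02e-28). Srsf5 had 1.97 ± 0.11 at 24 hours (FDR 3.68e-25), Srsf7 1.61 ± 0.077, Hnrnpl 1.28 ± 0.079, Srsf1 -1.39 ± 0.068, Hnrnpdl -1.71 ± 0.089 and Rbm20 -1.88 ± 0.10, all at FDR values below 0.01. The doses and DMSO shares of both arms differ, so these are differences between the treatments as given.

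Dox and Ace share DMSO2, so their libraries were also compared directly. At 6 hours 29 members differed, 12 higher and 17 lower in Dox (background 62.1%, 30.6% higher and 31.4% lower), and library size in place of TMM, which moved the median of all genes to -0.11, gave 6 and 23. Of the SR genes 1 was higher and 9 lower in Dox, and of the hnRNP genes 9 were higher and 4 lower, which library size alone turned to 4 and 8. At 24 hours 31 differed, 8 higher and 23 lower (background 80.6%, 40.7% higher and 39.9% lower). Rbm20 was lower in Dox than in Ace by 2.14 and Rbm24 by 1.77 on the log2 scale at 24 hours. Srsf7 was higher by 1.0 and Ptbp1 by 0.97.

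The controls gave the background of culture time. From 6 to 24 hours 28 members changed in the DMSO groups, 8 higher and 20 lower, against 64.6% (32.7% higher, 31.9% lower) of all genes. SR genes had 1 higher and 6 lower, hnRNP genes 1 higher and 12 lower, and the named regulators 6 higher and 2 lower. The largest decreases were those of Srsf2 (-1.02 ± 0.039 SE, FDR 8.78e-33), Srsf3 (-0.90 ± 0.040 SE, FDR 1.07e-29) and Srsf7 (-0.78 ± 0.038 SE, FDR 1.70e-27). The largest increases were those of Rbfox1 (0.91 ± 0.11 SE, FDR 2.77e-11) and Rbm24 (0.67 ± 0.060 SE, FDR 1.20e-15). Srsf2 went from 273 to 311 CPM (median 290.1) to 143 to 167 CPM (median 160.2) in DMSO2, and Ptbp1 from 199 to 229 CPM (median 216) to 158 to 176 CPM (median 164). The Dox libraries at 24 hours held Ptbp1 and Srsf7 near or above the level of the 6-hour controls, at medians of 277 and 107 CPM against 216 and 77.9 CPM.

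Few members were called between the DMSO concentrations. At 6 hours 4 members were called higher and 0 lower in DMSO1 than in DMSO2 (background 16.5%, 9.87% higher and 6.6% lower): Srsf1 (0.20 ± 0.047), Srsf2 (0.20 ± 0.054), Hnrnpf (0.16 ± 0.041) and Celf2 (0.43 ± 0.088). With library size alone 1 was higher and 2 lower. Without DMSO1 library 6, 2 were called. At 24 hours 1 was called (background 0.433%, 0.137% higher and 0.295% lower), Ptbp1 at -0.24 ± 0.055 SE, FDR 0.00916, and 10 of the 13 fits that left out a library lost it, those without DMSO1 libraries 1, 5 and 6 and each of the 7 DMSO2 libraries.

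The partners of these genes in the splicing machinery were taken as lists written from general knowledge. Their counts, here and in the paragraphs that follow, stand against these shares of all genes called higher and lower. The shares were 23.4% and 24.5% in 5FU at 6 hours and 28% and 27.8% at 24 hours. For Ace they were 16.5% and 15.2%, then 18.2% and 19.1%. For Dox they were 31.5% and 32.7%, then 40.4% and 41%. For the controls from 6 to 24 hours they were 32.7% and 31.9%. The list of genes whose transcripts RBM20 splices in heart held 17 genes, 16 of them in the table. Ttn, the titin gene, had no row, so it is absent here and from the cardiomyocyte markers. In Dox at 24 hours, where Rbm20 was lowest, 1 of the 16 was called higher and 13 lower with a median of -1.72, against 81.4% of all genes called. Ryr2, the calcium release channel, fell (-3.78 ± 0.12), as did Ldb3, a Z-disc protein (-3.42 ± 0.091), and Pdlim3 rose (0.53 ± 0.14). At 6 hours of Dox 5 were called higher and 4 lower (median 0.075, or 2 and 6 with library size only), and Rbm20 was below every control. Whether the level of Rbm20 bears on the levels of these genes was not tested. Gene counts do not show which exons were included, so splicing itself was not measured here, and many of these genes are also genes of the cardiomyocyte.

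Of the 9 SR protein kinases 5 were called higher and 4 lower (median 0.52) in Dox at 24 hours, and 5 were called higher and 2 lower (median 0.20) at 6 hours, or 3 and 3 with library size in place of TMM. Clk3 (1.24 ± 0.044) and Prpf4b (1.08 ± 0.069) rose most at 24 hours, and the muscle kinase Srpk3 (-1.67 ± 0.12) and Srpk2 (-0.65 ± 0.042) fell most. Clk1, which responds to stress by splicing its own retained introns, rose in Dox at 6 hours (0.68 ± 0.061) and in Ace at 6 hours (0.28 ± 0.064) and fell in 5FU at 24 hours (-0.73 ± 0.067). In 5FU 4 were called higher and 2 lower (median 0.11) at 6 hours (2 and 2 with library size only) and 4 higher and 2 lower (median 0.11) at 24 hours, and in Ace 3 higher and 0 lower (median 0.12) at 6 hours and 3 higher and 0 lower (median 0.054) at 24 hours. Of the 17 SR-related proteins 8 were called higher and 0 lower (median 0.18) in Ace at 6 hours, led by Tra2a (0.52 ± 0.060), and 2 higher and 10 lower (median -0.22) in Dox at 6 hours. In 5FU at 6 hours 3 were called higher and 8 lower (median -0.22), with Luc7l3, a U1-associated factor, lowest (-0.91 ± 0.073), and the counts at 24 hours were 4 higher and 3 lower (median 0.025) in 5FU, 1 higher and 0 lower (median 0.064) in Ace and 7 higher and 7 lower (median -0.0037) in Dox.

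At 24 hours the lists of the core spliceosome had more members higher than lower in 5FU and in Ace. In 5FU at 24 hours 10 of 17 genes of the U2 snRNP and branch site recognition were called higher and 2 lower (median 0.28). Of 13 tri-snRNP genes 10 were called higher and 2 lower (median 0.22), and of 10 core U1 and Sm genes 5 higher and 2 lower (median 0.21). Snrpa1 of the U2 snRNP (1.02 ± 0.089) and Snrpa of the U1 snRNP (1.22 ± 0.085) rose most in 5FU. In Ace at 24 hours the counts were 4 higher and 0 lower (median 0.053), 5 higher and 0 lower (median 0.047), and 2 higher and 0 lower (median 0.059). In Dox at 24 hours they were 5 higher and 7 lower (median 0.0078), 4 higher and 6 lower (median -0.091), and 2 higher and 3 lower (median -0.029), with Prpf3 (1.37 ± 0.066) and Usp39 (-1.24 ± 0.054) at the ends of the tri-snRNP list. At 6 hours they were 6 higher and 3 lower (median 0.12), 2 higher and 5 lower (median -0.045), and 5 higher and 3 lower (median 0.12) in 5FU, 6 higher and 3 lower (median 0.083), 3 higher and 5 lower (median -0.11), and 5 higher and 1 lower (median 0.16) in Dox, and 1 higher and 5 lower (median -0.11), 1 higher and 2 lower (median -0.012), and 1 higher and 2 lower (median -0.047) in Ace. Library size in place of TMM turned the U2 list at 6 hours to 2 higher and 5 lower in 5FU and to 3 and 6 in Dox, and DESeq2's size factors made the tri-snRNP list in Dox at 6 hours even, at 4 and 4. In the controls from 6 to 24 hours they were 2 higher and 15 lower (median -0.38), 0 higher and 12 lower (median -0.38), and 0 higher and 8 lower (median -0.49).

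Of 9 hnRNP proteins that carry other symbols 3 were called higher and 5 lower (median -0.24) after 6 hours of Dox, with 5 higher and 2 lower (median 0.27) after 24 hours. Cirbp, a cold-inducible RNA-binding protein, rose in Dox at both times (1.03 ± 0.069 and 1.74 ± 0.070) and in Ace (0.65 ± 0.071 and 0.39 ± 0.069) and fell in 5FU at 24 hours (-0.50 ± 0.075). The other counts were 3 higher and 2 lower (median 0.025) and 4 higher and 1 lower (median 0.12) in 5FU and 4 higher and 1 lower (median 0.19) and 3 higher and 3 lower (median -0.0054) in Ace, at 6 and 24 hours. With library size only they were 1 and 3 in 5FU at 6 hours and 3 and 0 in Ace at 24 hours. Of 28 other regulators of alternative splicing 13 were called higher and 7 lower (median 0.20) after 6 hours of Dox, with 15 higher and 11 lower (median 0.32) after 24 hours. Esrp1 and Esrp2, epithelial splicing regulators, rose most at 24 hours. Esrp1 had 0 to 1 counts in the DMSO2 libraries and 11 to 20 in the Dox libraries, too few for a fold change, and Esrp2 had a log2 fold change of 4.56 ± 0.18. Rbpms, a smooth and cardiac muscle splicing factor, fell most (-1.93 ± 0.098). With library size only the list split 7 to 9 after 6 hours of Dox and 6 to 5 after 24 hours of Ace. The counts with TMM were 3 higher and 9 lower (median -0.16) and 6 higher and 11 lower (median -0.018) in 5FU and 3 higher and 6 lower (median -0.011) and 3 higher and 6 lower (median -0.064) in Ace.

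Since SR and hnRNP transcripts are known targets of nonsense-mediated decay, its 13 factors in the table were read as well. In 5FU at 24 hours 8 were called higher and 3 lower (median 0.28), with Upf1, the central helicase, at 0.86 ± 0.069. In Dox 4 were called higher and 5 lower (median -0.093) at 6 hours and 6 higher and 6 lower (median 0.050) at 24 hours, with the endonuclease Smg6 lowest at both times (-0.86 ± 0.043 and -1.06 ± 0.043). In Ace 5 were called higher and 1 lower (median 0.16) at 6 hours and 6 higher and 1 lower (median 0.16) at 24 hours, and in 5FU at 6 hours 4 were called higher and 2 lower (median 0.054), or 2 and 2 with library size only.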

How the data were processed

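Samples, groups and conditions were taken from the labels of the 65 libraries. The authors made the estimated counts, which are deposited as whole numbers per Entrez gene without normalization, by assigning paired reads of polyA RNA to the rat transcriptome with kallisto 0.46.0 and summing transcripts with tximport, and they removed genes with low counts before deposition. Such estimates divide reads shared by similar transcripts, so near-identical copies are uncertain, and they carry no exon-level information.

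The totals ran from 14332827 to 25738297 per library, which put 10 or more counts in every library for 37 of the 38 members. Symbols came from the RefSeq annotation of GRCr8 (14009 of 14554 identifiers matched). A minimum count of 10 in any 1 library removed no gene. TMM factors were used for scaling, and edgeR 4.0.16 in R 4.3.3 (glmQLFit, glmQLFTest) fitted all genes together with a term for each of the 10 groups, with Benjamini-Hochberg adjustment over all of them and an FDR below 0.01 as the threshold. All SE are those of the log2 fold change in this model. There were 16 contrasts: each drug against its control at each time, DMSO1 against DMSO2 at each time, 24 against 6 hours averaged over both controls, the 24-hour minus the 6-hour effect of each drug, the Dox minus the 5FU effect at each time, and Dox against Ace at each time. The fit was tried on simulated counts for the Dox and DMSO2 libraries at 24 hours only. Far fewer genes changed there than in the data. Neither the model of 10 groups nor the contrasts between effects were simulated. No library was a copy of another (chi-square per gene of 2.98 or more in the 180 pairs within groups).

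Any member may be named. Values by library are given for the 9 regulators and for the 3 called members that rose most and the 3 that fell most in each drug comparison, which made 26 genes, and for further members chosen after their values were seen. Of each other list, 2 called genes from each end of the fold changes in a comparison may be named. The members and the lists were chosen with earlier results of these data known. The alternatives were DESeq2's size factors, library size only, the DESeq2 1.42.0 Wald test, a model of the compared groups alone, filterByExpr or no filter, an FDR threshold of 0.1, a required log2 fold change of 1, leaving out each library and, added after seeing the data, leaving Des out of a marker sum. Promoter windows were the 250 bases before the start in RefSeq's table.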

Additional observations from a re-analysis of the deposited data

Results flagged for a closer look

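Over the 26 members described by library and the 10 groups, 260 sets of values were examined for a library farther from the rest than Dixon's critical value allows, and 28 sets held one. Chance gives about 1 in 20. Dox library 7 and DMSO1 library 1, both at 24 hours, held the most. Library 7 of Dox at 24 hours held Celf1 85.5 CPM (highest, nearest 71.7), Celf2 30.5 CPM (highest, nearest 25.2), Hnrnpa1 199 CPM (highest, nearest 162), Hnrnph1 129 CPM (highest, nearest 114) and Srsf11 135 CPM (highest, nearest 116). Library 1 of DMSO1 at 24 hours held Hnrnpdl 121 CPM (highest, nearest 91), Hnrnpl 227 CPM (lowest, nearest 319), Hnrnpul2 114 CPM (lowest, nearest 129) and Srsf6 98.1 CPM (lowest, nearest 131). Library 7 is the deepest library of Dox at 24 hours, and without it 36 members were called in that comparison in place of 33. Without library 1 of DMSO1 26 members were called in 5FU at 24 hours in place of 25.

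The other sets each held a library with 1 or more members apart. In DMSO1 at 6 hours it was Srsf11 103 CPM (highest, nearest 91.6) in library 3. In 5FU at 6 hours these were Hnrnph2 88.7 CPM (lowest, nearest 97.5) in library 3, Ptbp1 267 CPM (highest, nearest 231) in library 1 and Srsf1 119 CPM (highest, nearest 106) in library 6. In Ace at 6 hours these were Hnrnpul2 138 CPM (highest, nearest 127) in library 4 and Srsf4 74.9 CPM (lowest, nearest 82.6) in library 6. In Dox at 6 hours these were Celf1 75.8 CPM (lowest, nearest 82.8) in library 3, Hnrnpdl 50.6 CPM (lowest, nearest 63.5) in library 4, Hnrnpl 362 CPM (lowest, nearest 437) in library 4, Hnrnpr-ps2 2.82 CPM (highest, nearest 1.06) in library 6, Mbnl2 97.1 CPM (lowest, nearest 111) in library 7 and Srsf6 112 CPM (highest, nearest 101) in library 4. In 5FU at 24 hours these were Celf1 129.97 CPM (highest, nearest 120.2) in library 2, Hnrnpr 45.9 CPM (highest, nearest 41.6) in library 4 and Srsf7 35.9 CPM (highest, nearest 32.7) in library 1. In DMSO2 at 24 hours these were Hnrnpl 332 CPM (highest, nearest 321) in library 3 and Hnrnpll 56.2 CPM (highest, nearest 52) in library 3. In Ace at 24 hours it was Srsf6 135 CPM (lowest, nearest 148) in library 2. In Dox at 24 hours it was Hnrnpr-ps2 0.623 CPM (highest, nearest 0) in library 2. Hnrnpr-ps2 in Dox rests on few counts.

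Effects of a drug differed between groups by the test of the difference itself, with edgeR's FDR below 0.01, in 5 comparisons. The 24-hour effect differed from the 6-hour effect for 22 members in 5FU, 3 in Ace and 24 in Dox, and the Dox effect differed from the 5FU effect for 24 members at 6 hours and for 24 at 24 hours. Of all genes 39.5%, 11.6% and 64.8%, and 45.9% and 71.1%, were called so, in this order. Members whose difference reached 1 on the log2 scale were Srsf1 1.798 in 5FU over time and Srsf4 1.04, Srsf5 1.63, Hnrnpa1 -1.58 and Hnrnpa2b1 -1.19 in Dox over time. Between Dox and 5FU at 6 hours they were Srsf4 -1.702, Srsf7 1.17, Hnrnpdl -1.299 and Rbm20 -1.13, and at 24 hours Srsf1 -1.39, Srsf5 1.97, Srsf7 1.61, Hnrnpdl -1.71, Hnrnpl 1.28, Hnrnpll 1.13, Hnrnpr-ps2 -4.11, Ptbp1 1.09 and Rbm20 -1.88. A called difference of at least 1 was found for 7.2% of all genes in 5FU and 25.9% in Dox over time. Between Dox and 5FU the shares were 13.6% at 6 hours and 36.7% at 24 hours. The value of Hnrnpr-ps2 depends on the prior count.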

How the results depend on the processing

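Across the alternatives, 1493 of the refitted log2 fold changes of named members (82 values, each refitted under every alternative) kept their direction and their side of the threshold, 45 lost a call, 15 gained one and 16 changed sign, none of them a called value. No filter and DESeq2's size factors left the number of called members within 1.5 times in all 16 comparisons. With a log2 fold change of at least 1 also required, 4 members were called in 5FU at 6 hours and 4 at 24 hours, 0 in Ace at either time, 6 in Dox at 6 hours and 9 at 24 hours, 0 between the DMSO groups at either time and 1 between 24 and 6 hours in the controls. Of all genes 6.03% and 10.2%, 2.64% and 6.12%, 15.4% and 39.1%, 1.13% and 0.055%, and 8.58% were called so, in this order. As shares of the 38 members, the counts lay above those of all genes in 5FU at 6 hours. They lay near them in 5FU at 24 hours and Dox at 6 hours, and below them in Ace and in Dox at 24 hours. The differences between the times fell to 1 in 5FU, 0 in Ace and 4 in Dox, those between Dox and 5FU to 4 and 9, and those between Dox and Ace to 6 and 5, against 7.2%, 2.34% and 25.9%, 13.6% and 36.7%, and 14.4% and 36.2% of all genes. With an FDR below 0.1, 18 members were called in Ace at 24 hours, 9 between the DMSO groups at 6 hours and 10 between the times in Ace, against 54%, 32.6% and 26.6% of all genes. That last member count was 5 with library size only, 9 in a model of the compared groups and 5 in the DESeq2 Wald test. The DMSO groups gave 1 call at 6 hours in a model of both groups, and at 24 hours 0 in that model, with library size only and with filterByExpr. Leaving out each library gave 2 to 5 calls between the DMSO groups at 6 hours, the lowest without DMSO1 library 6 and the highest without DMSO1 library 3, and 0 to 1 at 24 hours. The counts of the 6 drug comparisons ran over 23 to 26 and 23 to 26 in 5FU, 14 to 17 and 8 to 11 in Ace and 28 to 31 and 33 to 36 in Dox.

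Values that changed sign were not called. With library size only these were Ptbp1 (-0.021) and Rbm24 (-0.023) in Ace at 6 hours, Mbnl2 (0.0076) and Rbm24 (0.019) in Ace at 24 hours, and Celf2 (-0.13) and Mbnl2 (-0.013) in Dox at 6 hours. Leaving out each library gave -0.056 to 0.0040 for Celf1, -0.0098 to 0.032 for Ptbp1 and -0.031 to 0.049 for Rbm24 in Ace at 6 hours, and -0.036 to 0.068 for Celf2 in Dox at 6 hours. The cause was not tested. No paired analysis was possible because the columns of the count table carry group names and no replicate numbers. Counts by gene limit what depth can show for Hnrnpr-ps2 and Srsf12, which had few counts.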
